A study of Mus musculus with 12 samples.

Results

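Transcript levels of p53 target genes and of the machinery of apoptosis were compared between 6 spontaneous hepatocellular carcinomas (HCC) and 6 normal livers. The set listed 38 genes by name, 20 in the p53 pathway, 9 of the Bcl2 family, and 9 caspases, adaptors and inhibitors. Each gene was read from its brightest probe set, as log2(intensity + 16) after quantile normalization, and 35 of the 38 were measured among 18193 genes. Trp53, Bax and Gdf15 were not analysed here. All 12 livers came from untreated B6C3F1 mice that were 2 years old, and each was read on 1 single-colour Affymetrix array. B6C3F1 is the hybrid of C57BL/6 and C3H used in National Toxicology Program bioassays, and its liver tumours arise without treatment. The labels give neither the sex of the mice nor whether arrays share an animal, so p-values measure the spread between these samples. With 6 arrays a group, precision is set by how many arrays there are.

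The transcription factor p53 is stabilised when DNA is damaged or growth signals are abnormal, and it then switches on genes that stop the cell cycle, repair DNA or kill the cell. Its target Mdm2 marks p53 for degradation and so closes a feedback loop. In the mitochondrial route of apoptosis, BH3-only proteins neutralise the survival proteins Bcl2, Bcl2l1 (Bcl-xL) and Mcl1, the pore formers Bax and Bak1 release cytochrome c, and Apaf1 assembles the complex that activates caspase 9. In the death receptor route, Fas recruits the adaptor Fadd and caspase 8, and in hepatocytes Bid links this route to the mitochondria.

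The arrays were close in most technical measures and differed in some cell markers. The 3'/5' ratio of the Gapdh control probe sets, a measure of RNA integrity, was 0.694 to 0.786 in HCC and 0.703 to 0.807 in normal livers. The same ratio for Actb lay lower in HCC, at 1.32 to 1.65, against 1.5 to 1.8 in normal livers, with overlap. It was lowest in HCC 6 and highest in normal 3. The hepatocyte markers, which include albumin, averaged a log2 level of 14.94 to 15.34 in HCC and 15.24 to 15.31 in normal livers. Of 11 measured cell cycle genes 10 rose in HCC, and their mean was 7.10 to 8.88 in HCC and 5.94 to 6.50 in normal livers. HCC 6 stood apart in markers of stellate cells and fibroblasts, with a mean of 12.15 over 9 genes, against 7.24 to 9.42 in the other tumours and 8.68 to 9.56 in normal livers. Its mean over 11 T and NK cell markers was also the highest among the tumours, at 7.21. The other tumours were at 5.97 to 6.44 and normal livers at 5.71 to 6.34. Among the tumours, Thy1 was highest in HCC 6, at 9.04, but Cd8a in HCC 1, at 8.08. Cd4 was lowest in HCC 6, at 4.76. Of these 11 markers 7 lay below the median probe set in both groups. Over 12 Kupffer and myeloid cell markers HCC 6 was also the highest, at 9.96. The other tumours were at 7.98 to 9.66 and normal livers at 8.22 to 9.38. Among the tumours, Cd68 was highest in HCC 6, at 12.18, but Clec4f in HCC 5, at 10.22. Several markers of resident liver cells fell in HCC. They were the Kupffer cell genes Clec4f at -2.36 and Timd4 at -2.11 (2 of 12 myeloid markers, with Itgax higher at 2.01), the sinusoidal endothelial genes Stab2 at -1.11 and Clec4g at -2.13 (2 of 9), and the stellate cell genes Lrat at -2.52 and Dcn at -2.07 (2 of 9, with Col1a1 higher at 3.27). The part of these cell markers in the members' differences was not tested. HCC 1, HCC 4, normal 1 and normal 3 lacked signal from Eif2s3y, Kdm5d and Uty, genes of the Y chromosome, which the other 8 arrays had, so both groups mix arrays with and without it. Xist, a transcript of female cells, was at 11.79, 12.03, 11.97 and 12.7 in the arrays without Y-linked signal, in that order. It was at 5.12 to 7.56 in the other 8. In bulk tissue, fewer cells of a type and less RNA per cell cannot be told apart.

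Of the 35 measured members, 6 were higher and 2 lower in HCC at an adjusted p under 0.05 (limma, Benjamini-Hochberg over all genes). The higher ones were Btg2, Phlda3, Bcl2l11, Polk, Apaf1 and Mcl1, and the lower ones Ei24 and Bak1. These were 22.9% of the members, and 13.7% of all genes were called, 6.48% higher and 7.24% lower. The median difference, HCC minus normal, was 0.21 on the log2 scale over the members and -0.04 over all genes, and the median size of a difference was 0.39 over the members and 0.31 over all genes. In 5 members all HCC lay above all normal livers and in 1 all lay below. That is 6 of 35, where 8.76% of all genes had groups that do not overlap, 4.25% with HCC above and 4.5% with HCC below. With the deposited scaling the split was 7 higher and 1 lower. With 1 array left out in turn, 3 to 6 members were higher and 1 to 3 lower. The count of higher members was 3 without normal 4, and that of lower members 1 without HCC 1, HCC 3, HCC 4, or normal 1, 3, 4, 5 or 6.

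The 8 called members kept their direction among the 8 arrays with Y-linked signal and among the 4 without. Among the 4 HCC and 4 normal livers with it, Btg2 was at 3.17 and Apaf1 at 0.91 and both passed, and none of the members called lower did (limma, with 10 members higher and 1 lower at an unadjusted p under 0.05). Among the 2 HCC and 2 normal livers without it, Btg2 was at 1.97 and Apaf1 at 0.08, and no member passed (limma, with 6 higher and 5 lower at an unadjusted p under 0.05). With the Y-linked level as a covariate, Bak1 alone among the 8 lost its call.

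**Figure D1:**
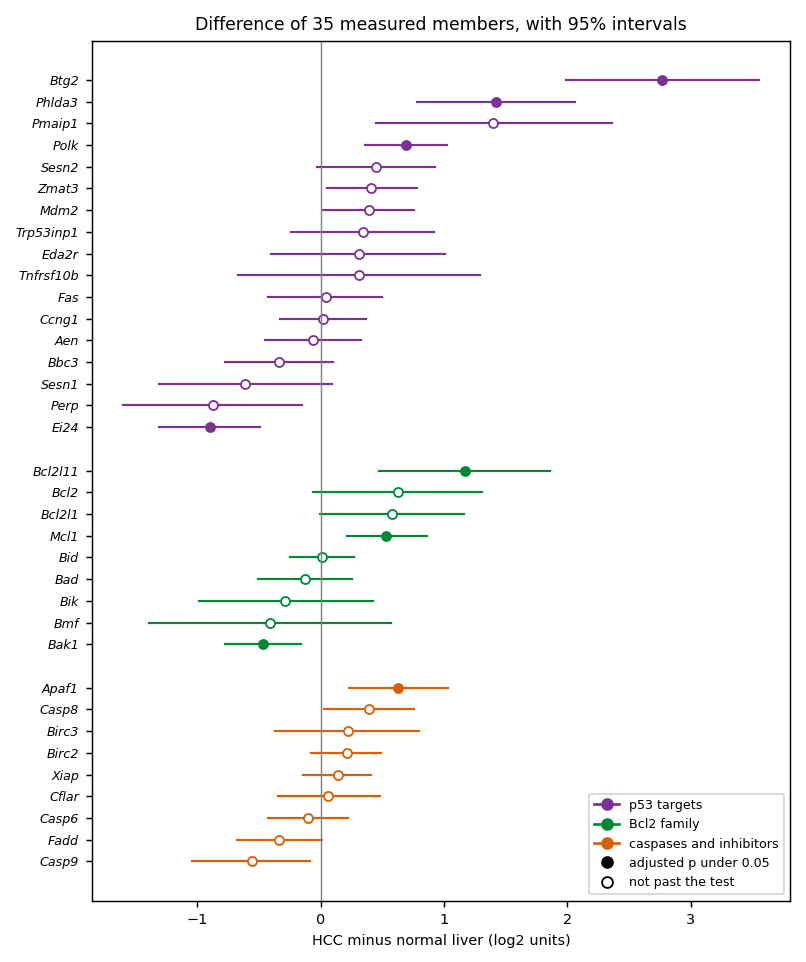
Difference between HCC and normal liver in log2 units (x axis) for the 35 measured members (rows), grouped as p53 targets, Bcl2 family, and caspases with adaptors and inhibitors. Points are limma estimates, bars are 95% intervals, and filled points passed the test. Btg2 lies farthest right at 2.77 and Ei24 farthest left at -0.90.

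Among the p53 targets, 3 of 17 measured members rose and 1 fell, or 23.5%, against 13.7% over all genes. Btg2, an antiproliferative gene that p53 and growth factors both induce, changed most. Its log2 level was 11.11, 12.01, 12.22, 11.91, 12.15 and 13.15 in HCC 1 to HCC 6, against 9.92, 10.08, 9.17, 8.12, 9.35 and 9.28 in normal livers 1 to 6. The lowest tumour, HCC 1, was above the highest normal liver. The difference was 2.77 ± 0.36 (SE, limma adjusted p = 0.000497), a 6.83-fold higher level. The second probe set of Btg2 rose by 2.07 (adjusted p = 0.0011 over all probe sets).

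Phlda3, which restrains the survival kinase Akt by competing for membrane lipid, was at 9.75, 9.15, 9.62, 8.54, 8.74 and 10.59 in HCC 1 to HCC 6, against 7.92, 7.94, 7.79, 8.27, 8.02 and 7.93 in normal livers 1 to 6. Every tumour was above every normal liver, and the SD was 0.75 among tumours and 0.16 among normal livers. Phlda3 rose by 1.42 ± 0.29 (SE, adjusted p = 0.0078), or 2.67-fold. Without HCC 6, which was the highest for both genes, the differences were 1.18 for Phlda3 (adjusted p = 0.00648) and 2.56 for Btg2 (adjusted p = 0.000837).

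Polk encodes the translesion DNA polymerase kappa, which copies past damaged bases. Its level was 8.66, 8.30, 8.06, 8.33, 8.09 and 8.34 in HCC 1 to HCC 6, against 7.58, 7.19, 7.65, 7.91, 7.53 and 7.79 in normal livers 1 to 6. The groups did not overlap, and Polk rose by 0.69 ± 0.15 (SE, adjusted p = 0.0109), or 1.61-fold. Its other probe set was at 0.23 and did not pass (adjusted p = 0.559), and with the mean of both the call was lost (adjusted p = 0.0921).

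Ei24, a p53-induced protein of the endoplasmic reticulum that takes part in autophagy, was the p53 target that fell. It was at 12.32, 12.87, 12.31, 12.04, 12.81 and 11.71 in HCC 1 to HCC 6, against 13.24, 13.18, 13.25, 13.25, 13.33 and 13.20 in normal livers 1 to 6. Normal livers lay within a narrow range, with an SD of 0.05, and every tumour was below it, with an SD of 0.45. The fall was -0.90 ± 0.19 (SE, adjusted p = 0.0082), a 1.87-fold higher level in normal liver.

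**Figure D2:**
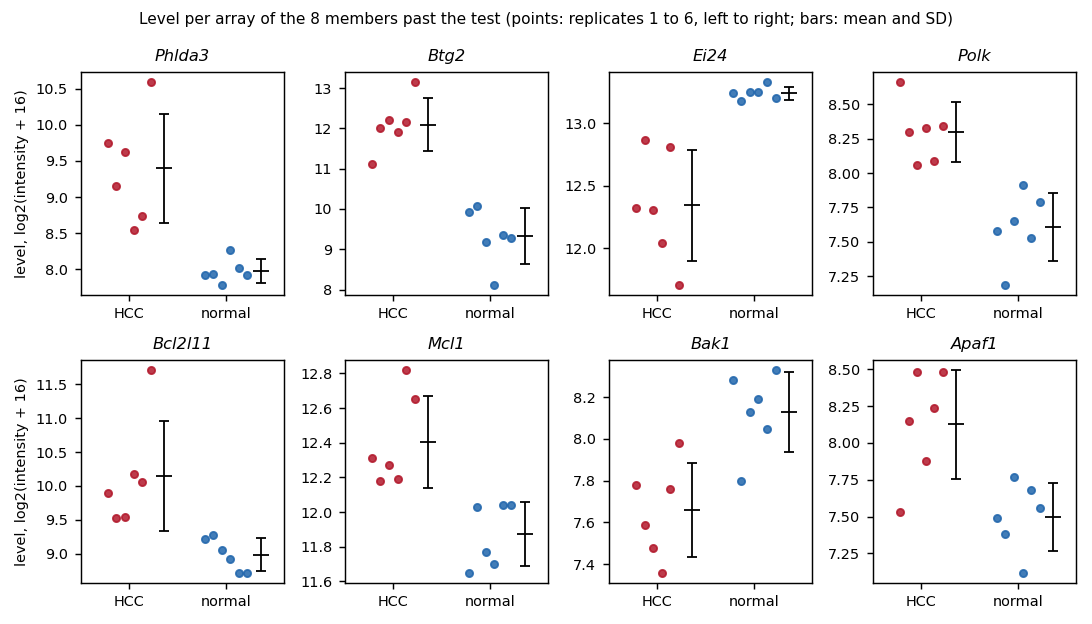
Log2 level (y axis, a separate range for each gene) of the 8 members past the test in HCC (red, left) and normal liver (blue, right). Points are replicates 1 to 6 from left to right and bars give the mean and SD. The groups do not overlap in Btg2, Phlda3, Polk, Ei24, Bcl2l11 and Mcl1, while in Bak1 and Apaf1 5 of 6 tumours lie outside the range of the normal livers.

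The best known targets of p53 did not pass the test. Mdm2 averaged 9.50 ± 0.33 (SD, n = 6) in HCC and 9.11 ± 0.20 (SD, n = 6) in normal liver, a difference of 0.39 with a 95% interval from 0.02 to 0.76 (limma adjusted p = 0.148), and 3 tumours lay above every normal liver. A second probe set of Mdm2, nearly as bright at a mean of 9.23, was at 0.56 (limma adjusted p = 0.0683 over all probe sets). A dim one, at a mean of 5.75, was at -0.23. Cyclin G1 (Ccng1), a target that recruits a phosphatase to Mdm2, averaged 10.94 ± 0.21 (SD, n = 6) in HCC and 10.92 ± 0.29 (SD, n = 6) in normal liver. Its difference was 0.02 with a 95% interval from -0.33 to 0.37 (limma adjusted p = 0.964), which turned negative with median centring (-0.038). The cell cycle inhibitor p21 (Cdkn1a), which is not in the set but is the classical target, was at 11.45, 9.97, 10.10, 11.17, 7.92 and 11.75 in HCC 1 to HCC 6, against 9.73, 9.47, 8.51, 9.83, 9.34 and 9.88 in normal livers 1 to 6. In 5 tumours it was above every normal liver, and in HCC 5 below every one. The difference of 0.94 did not pass (adjusted p = 0.297), and without HCC 5 it was 1.43 and passed (adjusted p = 0.0247).

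The upstream sequences of these genes show where a p53 site could be looked for near the start of the gene. The 5 windows below are of Btg2 and Phlda3, which had the largest rises, Ei24, which fell, and Ccng1 and Mdm2, which did not pass. Each is the 250 bases before an annotated start of the gene, from RefSeq (GRCm38.p6), 5' to 3' on the strand of the gene. In Ccng1 that start lies inside the outer bounds of the gene, so its window overlaps them. Capitals mark the p53 half-site consensus, a palindrome of 10 bases that reads alike on both strands, or, in Btg2, the cAMP response element TGACGTCA, which also reads alike on both strands and was searched for after the sequence was seen.
Btg2 (chr1:134079156-134079405, minus strand): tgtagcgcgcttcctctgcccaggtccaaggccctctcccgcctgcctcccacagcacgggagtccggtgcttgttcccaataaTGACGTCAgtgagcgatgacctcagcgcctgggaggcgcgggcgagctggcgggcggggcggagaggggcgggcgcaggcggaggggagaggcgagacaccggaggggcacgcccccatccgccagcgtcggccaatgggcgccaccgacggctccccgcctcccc
Phlda3 (chr1:135765835-135766084, plus strand): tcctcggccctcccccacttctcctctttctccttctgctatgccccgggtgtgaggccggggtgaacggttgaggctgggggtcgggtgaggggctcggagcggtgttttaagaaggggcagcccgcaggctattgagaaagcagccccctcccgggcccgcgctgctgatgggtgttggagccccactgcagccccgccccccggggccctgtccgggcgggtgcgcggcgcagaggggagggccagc
Ei24 (chr9:36797335-36797584, minus strand): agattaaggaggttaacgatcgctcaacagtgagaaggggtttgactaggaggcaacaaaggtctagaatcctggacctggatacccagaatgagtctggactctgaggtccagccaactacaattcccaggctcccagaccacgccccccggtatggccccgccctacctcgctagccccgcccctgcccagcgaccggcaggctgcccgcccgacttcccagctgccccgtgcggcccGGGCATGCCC
Ccng1 (chr11:40755287-40755536, minus strand): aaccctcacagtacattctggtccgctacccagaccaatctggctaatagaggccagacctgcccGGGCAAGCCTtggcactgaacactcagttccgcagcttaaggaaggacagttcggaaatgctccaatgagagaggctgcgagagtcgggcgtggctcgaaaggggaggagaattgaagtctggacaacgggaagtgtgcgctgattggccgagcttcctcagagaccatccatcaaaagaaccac
Mdm2 (chr10:117710759-117711008, minus strand): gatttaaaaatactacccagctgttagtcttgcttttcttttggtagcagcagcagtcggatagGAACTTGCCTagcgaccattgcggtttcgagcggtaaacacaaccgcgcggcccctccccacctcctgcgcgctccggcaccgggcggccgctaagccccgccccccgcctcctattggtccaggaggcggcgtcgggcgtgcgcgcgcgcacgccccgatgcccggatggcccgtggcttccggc
The half-site starts 10 bases before the annotated start in Ei24, 185 in Ccng1 and 186 in Mdm2, and these windows of Btg2 and Phlda3 hold none. Such a half-site was in at least 1 window of 7 of the 29 measured members that have one, or 24.1%, and of 8.2% of 27025 genes in the table. The members with it were Aen, Bmf, Ccng1, Ei24, Mdm2, Polk and Sesn1, of which 2 were called, Ei24 lower and Polk higher. The cAMP response element starts 166 bases before the start of Btg2 and is found in 1.77% of genes. It was in 2 measured members. The other was Birc2, which was not called, with the element 35 bases before an annotated start. A match of letters is a description of these windows and not a measured binding site.

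Pmaip1 (Noxa), a BH3-only protein that p53 induces and that neutralises Mcl1, was at 6.66, 5.72, 8.18, 6.26, 5.97 and 7.65 in HCC 1 to HCC 6, against 6.09, 4.53, 5.35, 5.98, 5.49 and 4.58 in normal livers 1 to 6. In 4 tumours it was above every normal liver. Its mean lay below the median probe set of 6.9 in both groups, at 6.74 in HCC and 5.34 in normal liver. Normal 2 and normal 6 were near the floor of 4 that the pseudocount sets. The difference of 1.40 ± 0.44 (SE) had an adjusted p of 0.0522. It passed with the deposited scaling (0.0495), with a trended and robust variance (0.0435), and without HCC 2 (0.0305), HCC 5 (0.0441) or normal 1 (0.0486). Bbc3 (Puma), the other strong p53-induced BH3-only protein, was at -0.34 (95% interval -0.78 to 0.10, adjusted p = 0.304), with 4 tumours below every normal liver and HCC 2 above every one.

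The remaining p53 targets did not pass the test, with adjusted p-values from 0.104 to 0.933. The sestrins restrain the growth kinase mTORC1, and their differences had opposite signs on the brightest probe sets. Sesn2 was at 0.45 (95% interval -0.03 to 0.93) and Sesn1 at -0.61 (-1.31 to 0.09), with 4 tumours below every normal liver. A second probe set of Sesn1, nearly as bright at a mean of 9, was at 0.02 (limma adjusted p = 0.965 over all probe sets). Dimmer ones were at -0.48 and -0.97. The RNA-binding protein Zmat3 was at 0.41 (0.05 to 0.78), and 4 tumours lay above every normal liver. Its adjusted p was 0.126, and 0.0381 with the deposited scaling.

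Perp, a desmosomal protein and p53 effector, was at 11.25, 12.47, 11.37, 10.93, 12.28 and 10.13 in HCC 1 to HCC 6, against 12.18, 12.07, 12.45, 12.37, 12.30 and 12.28 in normal livers 1 to 6. HCC 1, HCC 3, HCC 4 and HCC 6 were below every normal liver, and HCC 2 was above every one. The difference of -0.87 did not pass (adjusted p = 0.104), and without HCC 2 it was -1.09 and passed (adjusted p = 0.0318). Trp53inp1, a stress protein of autophagy and cell death, was above every normal liver in 4 tumours and below every one in HCC 4, and differed by 0.34 (adjusted p = 0.453). The nuclease Aen was at -0.06 (adjusted p = 0.871), a sign that turned with the deposited scaling (0.091) and median centring (0.024). Another of its 4 probe sets was at 1.09 and passed over all probe sets (adjusted p = 0.0399).

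The 3 receptors of the tumour necrosis factor receptor family among the p53 targets did not pass either. The death receptor Fas was at 9.41 ± 0.37 (SD, n = 6) in HCC and 9.37 ± 0.39 (SD, n = 6) in normal liver, a difference of 0.04 with a 95% interval from -0.43 to 0.50. Tnfrsf10b, the mouse receptor for the ligand TRAIL, was below the median probe set in both groups and differed by 0.31 (95% interval -0.67 to 1.29). The ectodysplasin receptor Eda2r, which is X-linked, differed by 0.31 (-0.40 to 1.01). Its 2 lowest arrays were normal 1 and normal 3, at 5.72 and 5.89, against 6.69 to 7.45 in the other normal livers. Normal 1 and normal 3 were the normal livers without Y-linked signal. The tumours without it, HCC 1 and HCC 4, were at 7.25 and 6.64, within the 6.16 to 7.58 of the other tumours.

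Of 28 other measured p53 targets, 4 rose and 1 fell, with a median difference of 0.25. That is 17.9% called, near the 13.7% over all genes. The largest of these were Psrc1, a spindle protein, at 3.74 ± 0.47 (SE, limma adjusted p = 0.000423), the carbonyl reductase Dcxr at -1.46 ± 0.26 (0.00318), and the immediate early gene Ier5 at 1.29 ± 0.19 (0.00102). All HCC were above all normal livers for Psrc1 and Ier5 and below them for Dcxr. The other 2 that rose, named after their values were seen, were the growth factor gene Tgfa at 1.16 ± 0.20 (0.00257) and the spindle protein gene Ckap2 at 1.29 ± 0.31 (0.0156). Psrc1 and Ckap2 act in mitosis, the cell cycle markers given above rose in the same tumours, and their part in these 2 results was not tested.

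Of 19 regulators of p53 and DNA damage kinases, 2 rose and none fell at an adjusted p under 0.05 (limma, and 5 of 19 at an unadjusted p under 0.05), or 10.5%, below the share over all genes. Cdkn2a, the gene of the cell cycle inhibitor p16 and of the Mdm2 inhibitor Arf, was at 7.68, 7.04, 8.34, 6.54, 7.11 and 6.76 in HCC 1 to HCC 6, against 4.72, 5.14, 6.38, 5.62, 4.72 and 5.26 in normal livers 1 to 6. Every tumour was above every normal liver, and the difference was 1.94 ± 0.34 (SE, adjusted p = 0.00339). Which of its 2 transcripts the probe set reads was not determined here. The acetyltransferase Crebbp was at 0.55 ± 0.16 (adjusted p = 0.0383), a call that 9 single arrays each ended when left out (HCC 1, 4, 5 and 6, and normal 1, 2, 3, 5 and 6, adjusted p up to 0.0843). With the mean of all its probe sets Crebbp was at 0.093 (adjusted p = 0.841), and the call was also lost with median centring (0.0645) and the replicate block (0.103). Mdm4, the partner of Mdm2, was at 0.12 (adjusted p = 0.683).

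In the Bcl2 family, 2 of 9 members rose and 1 fell, or 33.3%, against 13.7% over all genes. Mcl1, a short-lived survival protein on which hepatocytes depend, was at 12.31, 12.18, 12.27, 12.19, 12.82 and 12.65 in HCC 1 to HCC 6, against 11.65, 12.03, 11.77, 11.70, 12.04 and 12.04 in normal livers 1 to 6. The lowest tumour was above the highest normal liver, and Mcl1 rose by 0.53 ± 0.15 (SE, adjusted p = 0.0342), or 1.45-fold. The call was lost without HCC 5, HCC 6 or normal 1, 3 or 4 (adjusted p up to 0.075), and also when the deposited scaling (0.0605) or median centring (0.109) was used. The brightest probe set gave a smaller difference than 4 of the other 5, which lay between 0.46 and 1.41 and of which 4 passed over all probe sets.

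Bcl2 and Bcl2l1, the other survival genes, did not pass on their brightest probe sets. Bcl2 was at 0.63 (95% interval -0.06 to 1.31, adjusted p = 0.216) and Bcl2l1 at 0.58 (-0.01 to 1.16, adjusted p = 0.18). With the mean of all probe sets both passed, Bcl2 at 0.56 (adjusted p = 0.0375) and Bcl2l1 at 0.55 (adjusted p = 0.0344). One dimmer probe set of Bcl2 was higher in every tumour, at 6.80, 7.04, 7.38, 6.95, 7.61 and 7.21 in HCC 1 to HCC 6, against 6.16, 6.05, 5.24, 6.53, 6.07 and 6.11 in normal livers 1 to 6 (difference 1.14 ± 0.21, SE, adjusted p = 0.00565 over all probe sets). It was picked out after its values were seen.

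Bcl2l11 (Bim), the BH3-only protein that growth factor signalling keeps in check, was at 9.90, 9.52, 9.54, 10.17, 10.06 and 11.71 in HCC 1 to HCC 6, against 9.22, 9.27, 9.06, 8.92, 8.72 and 8.72 in normal livers 1 to 6. Every tumour was above every normal liver, and HCC 6 was far above the other tumours. Bcl2l11 rose by 1.17 ± 0.32 (SE, adjusted p = 0.0299), or 2.24-fold, and without HCC 6 by 0.86 (adjusted p = 0.00907). HCC 6 was also the tumour with the highest means of stromal, of T and NK cell, and of Kupffer and myeloid cell markers. The part of these cells in its level was not tested. The call was lost without HCC 4 or without normal 3, 4, 5 or 6 (adjusted p up to 0.0632). All 5 probe sets of Bcl2l11 were at positive differences, from 0.16 to 1.23.

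Bid, Bad, Bik and Bmf, also BH3-only genes, did not pass the test. Bid was at 9.12 ± 0.20 (SD, n = 6) in HCC and 9.11 ± 0.05 (SD, n = 6) in normal liver, a difference of 0.01 with a 95% interval from -0.25 to 0.27, which was -0.014 with array weights. Bad was at -0.13 (-0.51 to 0.25, and 0.0063 with the deposited scaling), Bik at -0.29 (-0.99 to 0.42) and Bmf at -0.41 (-1.39 to 0.57). Bik and Bmf varied more among tumours than among normal livers, with SDs of 0.83 and 1.01 in HCC and 0.22 and 0.67 in normal liver. HCC 1 and HCC 4 had the lowest level of both, at 5.90 and 6.66 for Bik and 6.47 and 6.70 for Bmf, and HCC 5 the highest, at 8.33 and 9.11. HCC 1 and HCC 4 are the tumours without Y-linked signal. In arrays with it Bik was at 0.17 and Bmf at 0.14, and in arrays without it Bik was at -1.20 and Bmf at -1.50, a contrast that was not tested.

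Bak1, the pore former of the outer mitochondrial membrane, fell. It was at 7.78, 7.59, 7.48, 7.36, 7.76 and 7.98 in HCC 1 to HCC 6, against 8.28, 7.80, 8.13, 8.19, 8.05 and 8.33 in normal livers 1 to 6, and 5 tumours were below every normal liver. The difference was -0.47 ± 0.14 (SE, adjusted p = 0.0445). Leaving out any of 10 single arrays ended the call (all but HCC 6 and normal 2, adjusted p up to 0.0943), and with the deposited scaling (0.181) or median centring (0.131). The second probe set of Bak1, which lies near the floor at a mean of 5.42, was at 1.09 (adjusted p = 0.055 over all probe sets), and the mean of both was at 0.31 (adjusted p = 0.337). Of 10 further measured genes of the family, Bcl2l14 rose by 1.02 ± 0.22 (SE, adjusted p = 0.00898) and the other 9 did not pass. That is 10% called, against 13.7% over all genes.

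**Figure D3:**
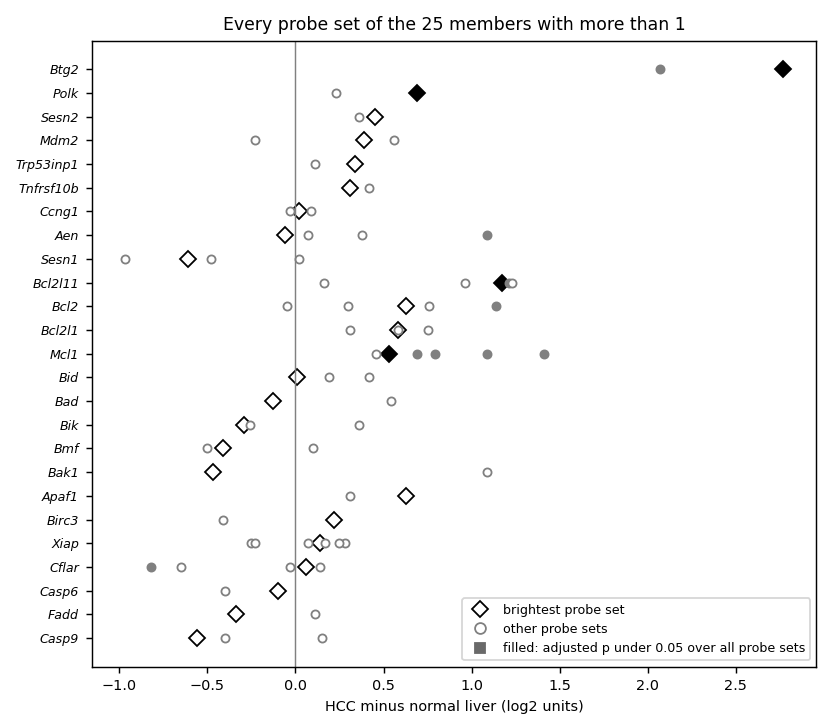
Difference between HCC and normal liver in log2 units (x axis) for every probe set of the 25 members that have more than 1 (rows). Diamonds are the brightest probe sets, circles the others, and filled symbols passed when all probe sets were tested together, where Bak1 (adjusted p = 0.0618) and Apaf1 (0.0503) did not. Probe sets disagree in sign in 14 members, among them Bak1 and Cflar.

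Among the caspases, adaptors and inhibitors, 1 of 9 members passed, or 11.1%, against 13.7% over all genes. Apaf1, the scaffold of the apoptosome, was at 7.53, 8.15, 8.48, 7.88, 8.24 and 8.48 in HCC 1 to HCC 6, against 7.49, 7.38, 7.77, 7.12, 7.68 and 7.56 in normal livers 1 to 6. In 5 tumours it was above every normal liver, and HCC 1 lay within their range. Apaf1 rose by 0.63 ± 0.18 (SE, adjusted p = 0.0387), or 1.55-fold. Leaving out any of 9 single arrays ended the call (HCC 2, 3, 5 and 6, and normal 1, 2, 4, 5 and 6, adjusted p up to 0.0844) and with the mean of its 2 probe sets (0.0855).

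The caspases themselves did not pass. Casp9, the initiator that Apaf1 activates, was at 8.45, 8.52, 8.63, 8.57, 9.15 and 7.64 in HCC 1 to HCC 6, against 9.07, 8.70, 9.35, 9.10, 8.83 and 9.28 in normal livers 1 to 6. In 5 tumours it was below every normal liver, and HCC 5 was within their range. The difference of -0.56 had an adjusted p of 0.111, and without HCC 5 it was -0.69 and passed (0.043). Casp8, the initiator of the death receptor route, was at 0.39 (95% interval 0.03 to 0.76, adjusted p = 0.145), and its adaptor Fadd at -0.34 (-0.68 to 0.01, adjusted p = 0.185, and -0.45 with 0.0437 without HCC 2). The effector Casp6 was at -0.10 (-0.43 to 0.22).

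The 4 inhibitors all had small positive differences that did not pass, from 0.06 for Cflar to 0.22 for Birc3. Xiap, the X-linked direct inhibitor of caspases, was at 12.56 ± 0.09 (SD, n = 6) in HCC and 12.43 ± 0.21 (SD, n = 6) in normal liver. Its difference was 0.14 (95% interval -0.14 to 0.41), and -0.055 with median centring. Birc2 (cIAP1), a ubiquitin ligase of death receptor complexes, was at 0.21 (-0.08 to 0.49). Cflar (FLIP), the decoy of caspase 8, was at 10.77 ± 0.21 (SD, n = 6) in HCC and 10.71 ± 0.41 (SD, n = 6) in normal liver on its brightest probe set. A dimmer probe set of Cflar, picked out after its values were seen, was at 9.12, 9.30, 9.40, 8.91, 9.33 and 9.42 in HCC 1 to HCC 6, against 9.78, 10.22, 10.21, 10.12, 10.14 and 9.92 in normal livers 1 to 6. All tumours were below all normal livers there, by -0.82 ± 0.14 (SE, adjusted p = 0.00353 over all probe sets). Which transcripts each probe set reads was not determined here.

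Birc3 (cIAP2), a target of NF-kappaB, split the tumours. It was at 9.06, 10.05, 10.12, 9.01, 10.38 and 10.40 in HCC 1 to HCC 6, against 9.41, 9.29, 10.09, 9.68, 9.70 and 9.54 in normal livers 1 to 6. HCC 1 and HCC 4 were below every normal liver, and HCC 3, HCC 5 and HCC 6 above every one. HCC 3, HCC 5 and HCC 6 had the highest tumour means of Kupffer and myeloid cell markers, at 9.36, 9.66 and 9.96. HCC 1 and HCC 4 had the lowest tumour means of 5 other cell type marker lists. The part of all these cells in the result was not tested. Over 8 B and plasma cell markers the means were 6.91 and 7.04, against 7.70 to 8.05 in the other tumours and 7.65 to 8.12 in normal livers. Among these 8, Ighm was at 6.91 and 8.12 in HCC 1 and HCC 4, against 10.38 to 12.43 in the other tumours, while Blk was highest in HCC 1 and Pax5 in HCC 4 among the tumours. For HCC 1 and HCC 4 the endothelial means were 8.04 and 8.82, against 9.03 to 9.44 in the other tumours and 8.64 to 9.58 in normal livers. Over stellate cell and fibroblast markers they were 7.24 and 8.84, against 8.87 to 12.15 and 8.68 to 9.56. Over cholangiocyte markers they were 6.34 and 5.62, against 6.36 to 7.35 and 6.08 to 6.68. Over hepatocyte markers they were 14.94 and 15.09, against 15.19 to 15.34 and 15.24 to 15.31. Among these, Cps1 was at 12.65 and 13.66, against 14.72 to 15.37 in the other tumours. Alb was at 15.5 and 15.59, against 15.39 to 15.6. HCC 1 and HCC 4 are also the 2 tumours without Y-linked signal.

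Of 27 further caspases, cofactors and death receptor genes, 7 rose and 2 fell, or 33.3%, against 13.7% over all genes. The largest differences were Birc5 (survivin) at 2.95 ± 0.36 (SE, limma adjusted p = 0.000321), Casp12, a caspase of the endoplasmic reticulum in mice, at 2.29 ± 0.44 (0.00545), and Casp4, the inflammatory caspase that senses bacterial lipopolysaccharide, at 2.22 ± 0.51 (0.0137). Birc5 is a mitotic protein as well as an inhibitor of apoptosis, and it is itself 1 of the 11 cell cycle markers that were measured. In each of the 3 genes all HCC were above all normal livers. Casp12 was highest in HCC 5 at 11.60, against 8.49 to 9.88 in the other tumours and 6.84 to 7.81 in normal livers. Casp4 was high in 3 tumours (HCC 3, HCC 5 and HCC 6), at 9.15 to 9.64. The other tumours were at 6.76 to 7.31 and normal livers at 5.01 to 6.55. These 3 tumours also had the highest tumour means of Kupffer and myeloid cell markers, and the part of these cells in Casp4 was not tested.

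The other called genes of that list, named after their values were seen, belong to several routes of cell death. Cytochrome c (Cycs), which triggers the apoptosome, fell by 0.50 ± 0.14 (SE, limma adjusted p = 0.0322), and the mitochondrial nuclease Endog by 0.85 ± 0.17 (0.00698). Mlkl, the executioner of necroptosis, rose by 1.53 ± 0.30 (0.00577), and the receptor gene Tnfrsf1a by 0.60 ± 0.12 (0.00638). Fasl, the ligand of Fas, rose by 1.09 ± 0.27 (0.0195), and Tnfaip3, a brake on NF-kappaB, by 1.06 ± 0.30 (0.0358). The mean of Fasl lay below the median probe set in both groups, and 3 tumours lay above every normal liver. The calls of Cycs and Tnfaip3 were lost without any of 9 and 8 single arrays (adjusted p up to 0.0702 and 0.0788), for Cycs HCC 3 to 6 and normal 1, 2, 4, 5 and 6, and for Tnfaip3 HCC 3 to 6 and normal 3 to 6.

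**Figure D4:**
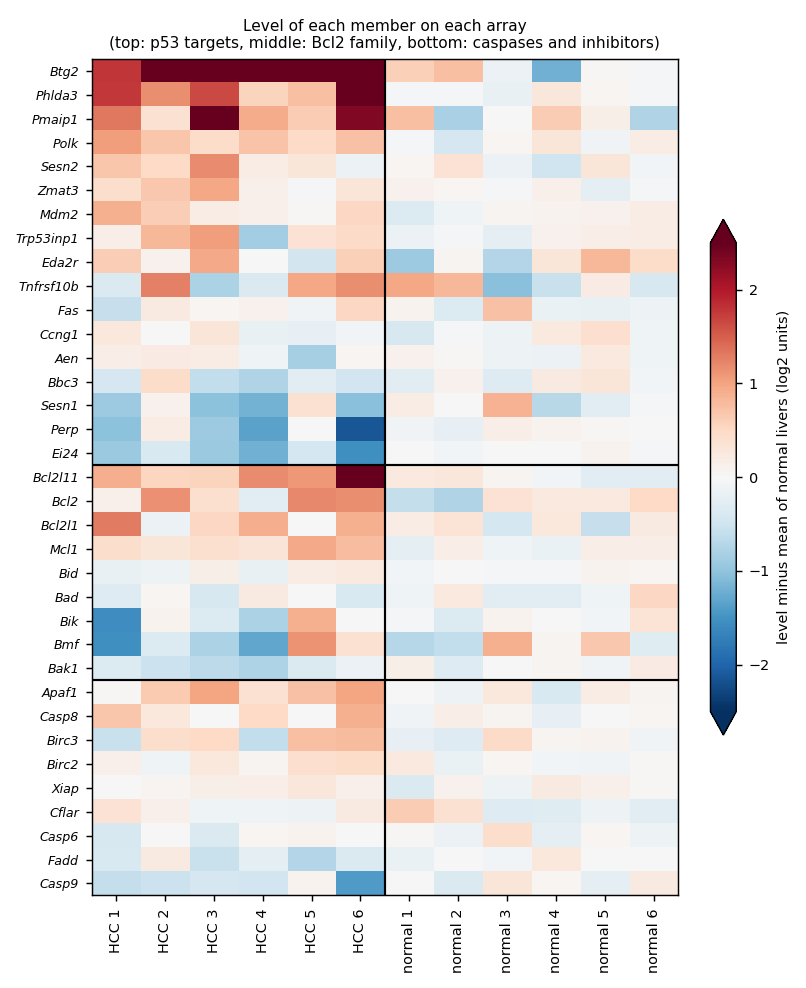
Level of each member (rows) on each array (columns, HCC left of normal liver) as the difference from the mean of the 6 normal livers in log2 units, with the colour scale saturating at the ends marked by arrows. The rows of Btg2 and Phlda3 are above the normal mean in all 6 tumours and Ei24 is below it in all 6, while Birc3, Bik and Bmf are lowest in HCC 1 and HCC 4.

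The tumours varied more than the normal livers in most members. The SD was larger in HCC for 26 of 35 members, or 74.3%, and for 64.7% of all genes. HCC 6 was the tumour farthest from the normal mean in 10 members, or 28.6%, and in 28% of all genes. HCC 1 and HCC 3 were the farthest in 8 members each, or 22.9%, and in 15.5% and 16.5% of all genes. HCC 5 was the farthest in 5 members, or 14.3%, and in 13.3% of all genes, HCC 4 in 3 members, or 8.57%, and in 14.9%, and HCC 2 in 1 member, or 2.86%, and in 11.7%. The tumour with the highest level differed between p53 targets. HCC 3 had the highest Pmaip1, Sesn2, Zmat3 and Trp53inp1, HCC 1 the highest Mdm2, and HCC 6 the highest Btg2, Phlda3 and Cdkn1a. HCC 5 had the lowest Cdkn1a, Mdm2, Zmat3 and Aen among the tumours.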

How the data were processed

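RNA of each of the 12 livers was extracted with TRIzol and columns, and 1 microgram was labelled with biotin for an Affymetrix array, per the labels' protocols. The deposited values are linear intensities of 45101 probe sets, and each array as deposited by the authors has the same trimmed mean. How probes were summarised into intensities was not given in the sources used here. Here log2(intensity + 16) was quantile normalized after which 64 control probe sets were dropped. Of the rest, 34945 name 1 gene, 932 several and 9160 none in the platform annotation. The probe set with the highest mean stood for its gene, without a filter on low values. HCC and normal livers were compared with limma 3.58.1 in R 4.3.3 (lmFit and eBayes, two-sided, Benjamini-Hochberg over 18193 genes, threshold 0.05, no covariate). The members and gene lists were chosen with earlier results of these data known. Every member is reported, and those past the test have the value of each array. By rule, up to 3 called genes with the largest differences were named from each further list, besides Cdkn1a, Mdm4 and Cdkn2a. The other called genes of these lists were named after their values were seen. Promoter windows came from RefSeq, and 29 of the 35 measured members had one. On simulated data for this comparison (18193 genes), 2%, 52%, 90% and 94% of 50 genes changed by 0.5, 1, 2 and 4 log2 units were recovered, and 8 of 17993 unchanged genes were called. The simulation changed few genes, drew each gene independently and gave both groups the same SD, unlike these data. Its shares therefore do not give the recovery in the real comparison. Alternatives covered scaling, pseudocount, dim genes, probe sets, variance, weights, Y-linked signal, replicate number and each array left out.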

Additional observations from a re-analysis of the deposited data

Results flagged for a closer look

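In 92 combinations of a group and a gene, 2 had an array far from the other 5 of its group by Dixon's test, which chance gives in about 1 of 20. Bcl2l11 was at 11.71 in HCC 6, against 9.52 to 10.17 in the other tumours and 8.72 to 9.27 in normal livers. Aen was at 8.08 in HCC 5, against 8.80 to 9.11 in the other tumours and 8.77 to 9.15 in normal livers.

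Birc3 moved in opposite directions in arrays with and without Y-linked signal. With it, Birc3 was at 10.05, 10.12, 10.38 and 10.40 in HCC, against 9.29, 9.68, 9.70 and 9.54 in normal livers, a difference of 0.68. Without it, Birc3 was at 9.06 and 9.01 in HCC, against 9.41 and 10.09 in normal livers, a difference of -0.72. Every tumour lay above the normal livers in the first case and below them in the second, and the difference between the 2 cases was not tested.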

How the results depend on the processing

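Over all alternatives, 733 of the members' differences kept their sign and their side of the threshold, 54 lost the call, 11 gained it and 40 changed sign. The causes were not tested. With 1 array left out, 3 to 6 members were higher and 1 to 3 lower, and over all genes 895 to 1222 were higher and 919 to 1443 lower. Other than that, 1 member was lower with the deposited scaling, median centring, the mean of all probe sets, a trended and robust variance, the replicate block, or the Y-linked level as covariate. At a threshold of 0.01, 2 members were higher and 1 lower, with 515 genes higher and 461 lower. In arrays with Y-linked signal alone, 2 members were higher and 0 lower (limma, 10 and 1 at an unadjusted p under 0.05), with 575 genes higher and 563 lower. In arrays without it, 0 were higher and 0 lower (limma, 6 and 5 at an unadjusted p under 0.05), with 40 genes higher and 37 lower. Differences changed sign as follows. With median centring, Ccng1 was at -0.038, Xiap at -0.055 and Aen at 0.024. With the deposited scaling, Aen was at 0.091 and Bad at 0.0063. With the mean of all probe sets, Aen was at 0.37, Bak1 at 0.31, Bad at 0.2, Cflar at -0.26 and Birc3 at -0.1, and with array weights Bid was at -0.014. In arrays with Y-linked signal, Ccng1 was at -0.12, Eda2r at -0.11, Bik at 0.17, Bmf at 0.14 and Casp6 at 0.046. In arrays without it, Trp53inp1 was at -0.14, Fas at -0.65, Tnfrsf10b at -0.32, Bid at -0.15, Cflar at -0.036, Birc2 at -0.044, Birc3 at -0.72, Aen at 0.03 and Bad at 0.15. With 1 array left out, Ccng1 ranged from -0.063 to 0.1, Fas from -0.056 to 0.19, Aen from -0.11 to 0.1, Bid from -0.04 to 0.047 and Cflar from -0.00067 to 0.19.

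Deviations of same-numbered arrays correlated at -0.0147 to 0.0778, which cannot tell whether any of them share an animal. Y-linked signal differed between HCC 3 and normal 3, and between HCC 4 and normal 4. The replicate numbers were not used as pairs in the main fit. With the replicate block, 1 member was lower and 839 genes were lower, and Bak1 (adjusted p = 0.0807), Bcl2l11 (0.0773) and Mcl1 (0.0562) lost their calls. Tnfrsf10b and Pmaip1 were the members below the median probe set in both groups, where little signal over background limits the precision.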
